A study of Mus musculus with 8 samples.

Results

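Cells make and take up aldehydes that crosslink DNA, and 8 mouse genes whose enzymes remove them are described here in hematopoietic stem cells. They were chosen by name for their function, not for their values, but with earlier results of these data known. They are 8 of the 52224 genes in the table. The 4 libraries labelled DekTg and the 4 labelled DekCon are RNA sequencing of bone marrow cells sorted as CD48-CD150+LSK, the surface profile of long-term stem cells. The study asks about DEK, a protein bound to chromatin, and the tolerance of replication stress by stem cells in Fanconi anemia, an inherited defect of crosslink repair. DekTg and DekCon are given as genotypes. The sources used here name no transgene promoter, strain, age or number of animals for either. Nothing says that libraries of 1 genotype came from separate mice, so a p-value reads only how far these libraries differ, which may be technical.

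Formaldehyde arises inside cells from demethylation reactions and one-carbon metabolism, and acetaldehyde from ethanol and other sources. Formaldehyde binds glutathione, ADH5 oxidizes the adduct to S-formylglutathione, and esterase D (ESD) splits that product into formate and glutathione. Mitochondrial ALDH2 oxidizes acetaldehyde and, less efficiently, formaldehyde. Crosslinks that escape this first line are repaired by the Fanconi pathway, and mice that lack this pathway together with Aldh2 or Adh5 lose their blood stem cells.

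Promoter windows of 3 of the genes are shown so that those of the formaldehyde pair, which work in nearly all tissues, can be read beside that of Aldh1a1, whose expression is more restricted. The windows run from 250 bases before to 50 bases after a RefSeq start on GRCm38.p6, 5′ to 3′ on the gene's strand, and all 3 genes lie on the + strand. Capitals mark 4 motifs searched on both strands: the GC box, with the letters GGGCGG (read as CCGCCC from the other strand), the CCAAT box, the TATA box, with the letters TATAAA, and a TATA-like motif, with the letters ATAAAA. The TATA box and the TATA-like motif can overlap each other. Adh5 and Aldh1a1 each have 2 RefSeq starts in the table; the window shown for Adh5 is at the annotated gene start, and that for Aldh1a1 is at the downstream start. Adh5 has its window at chr3:138442843-138443142, Esd at chr14:74732047-74732346 and Aldh1a1 at chr19:20601718-20602017.
Adh5: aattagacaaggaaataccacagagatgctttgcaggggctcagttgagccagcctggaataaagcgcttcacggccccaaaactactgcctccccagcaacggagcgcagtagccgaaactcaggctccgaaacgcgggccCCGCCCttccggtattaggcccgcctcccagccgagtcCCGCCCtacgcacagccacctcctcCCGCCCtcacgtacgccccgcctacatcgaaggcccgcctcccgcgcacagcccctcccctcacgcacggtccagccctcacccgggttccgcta
Esd: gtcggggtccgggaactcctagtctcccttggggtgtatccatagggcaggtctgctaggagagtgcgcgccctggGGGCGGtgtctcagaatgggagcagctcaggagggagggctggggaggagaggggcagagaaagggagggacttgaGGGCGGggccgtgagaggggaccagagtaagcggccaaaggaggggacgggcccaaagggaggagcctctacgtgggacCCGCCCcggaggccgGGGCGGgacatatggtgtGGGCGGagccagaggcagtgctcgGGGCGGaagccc
Aldh1a1: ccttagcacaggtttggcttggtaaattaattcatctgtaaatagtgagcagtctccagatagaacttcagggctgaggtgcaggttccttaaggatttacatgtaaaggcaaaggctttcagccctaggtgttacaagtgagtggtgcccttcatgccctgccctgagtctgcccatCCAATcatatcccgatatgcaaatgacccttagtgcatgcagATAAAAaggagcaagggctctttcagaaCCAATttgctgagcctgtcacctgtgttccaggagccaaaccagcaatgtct

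The Adh5 window held 26 CG dinucleotides, was 65.0% G+C and had 3 GC boxes. The Esd window held 17 CG dinucleotides, was 68.7% G+C and had 6 GC boxes. The Aldh1a1 window held 1 CG dinucleotide and was 47.0% G+C. It had 2 CCAAT boxes and 1 TATA-like motif, and no GC box. Composition depended on the start chosen. The window of Adh5 at its other start (chr3:138436950-138437249) held 3 CG dinucleotides, was 47.0% G+C and had 1 TATA box and no GC box. That of Aldh1a1 at its other start (chr19:20492333-20492632), close to the annotated gene start, held 3 CG dinucleotides, was 43.3% G+C and had none of the 4 motifs. Which start the cells used was not measured. Over the 32544 distinct windows of this length outside chromosome 18, the median was 7 CG dinucleotides and 53.0% G+C. A GC box was in 35.9% of them, a CCAAT box in 37.4%, the TATA box in 13.6% and the TATA-like motif in 18.4%. These matches describe letters and not bound sites. RefSeq windows were taken for 6 of the 8 genes. Chromosome 18, which holds Aldh7a1, was left out of the search, and no window was matched for Aldh2.

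Each value is a normalized read count, the reads of a gene divided by 1 size factor per library, with no scaling for gene length. The DekTg libraries held between 2642858 and 3591212 recovered reads, and the DekCon libraries between 2525884 and 4101132. Dek itself was listed at 1862 to 2710 in DekTg and 395 to 632 in DekCon, in the direction of the labels, though Dek is among 6 genes with values that are not whole reads. All 12 stem cell markers were detected in every library, with sums of 4977 to 6110 in DekTg and 5462 to 6456 in DekCon. Libraries stood apart within each genotype. DekCon 2 summed to 9472 over 6 megakaryocyte markers, against 2690 to 4835 in the other DekCon libraries, and to 1177 over Cd48, Cd34, Flt3 and Cd27, against 1985 to 3877. Libraries 1 and 4 of each genotype were closer to each other (r = 0.978 in both) than other pairs. They differed by more than read sampling noise, but amplified libraries of the same cells could also do so. They were counted separately, and whether they are separate samples was not tested. The 10 B lineage markers summed to 4635 to 5453 in DekTg and 526 to 1323 in DekCon. The other sums overlapped between the genotypes. In DekTg the 9 neutrophil markers summed to 2380 to 17005 and the 10 erythroid markers to 688 to 826, against 4244 to 11284 and 326 to 694 in DekCon. Within the erythroid list the genes did not move together. Hba-a1, an alpha globin, was 150 to 180 in DekTg and 15.2 to 51.8 in DekCon, without overlap, and Hbb-bs, a beta globin, was 96.6 to 114 in DekTg and 7.61 to 17.9 in DekCon, also without overlap. Klf1, an erythroid transcription factor, and Epor, the erythropoietin receptor, were highest in DekCon 2, at 231 and 121. In DekTg the 7 monocyte markers summed to 939 to 2543 and the 7 T and NK markers to 457 to 664, against 787 to 1278 and 545 to 949 in DekCon. In DekTg the 4 mast cell markers summed to 180 to 263 and the 7 stromal and endothelial markers to 824 to 949, against 196 to 232 and 669 to 922 in DekCon. In bulk samples, fewer cells of a type and less RNA per cell cannot be told apart.

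None of the 8 enzyme genes differed between DekTg and DekCon stem cells beyond the spread between libraries. All 8 were detected in every library and passed the filter, from 23 reads for Aldh1b1 to 624 reads for Aldh2. Limma with Benjamini-Hochberg adjustment over 37414 genes called 0 of the 8 at an adjusted p under 0.05, and 0 of the 8 had an unadjusted p under 0.05. Over all genes it called 13, or 0.0347% (10 higher in DekTg and 3 lower). Unadjusted p-values fell under 0.05 for 2593 genes. EdgeR and DESeq2 on the recovered reads also called 0 of the 8. For each of the 8 the genotypes overlapped, against 1486 genes, or 3.97% of all tested, whose groups did not overlap. Log2 fold changes on the scale log2(value + 1) were above 0 for 2 genes (Adh5 and Aldh3a2) and below 0 for 6, with a median of -0.13; 3 were above 0 when libraries were quantile normalized or rescaled to the same sum, and 4 with the G+C trend described below subtracted. Leaving out each library moved the median of the 8 between -0.18 (without DekTg 4) and -0.04 (without DekCon 2), and 1 of the 8 had an unadjusted p under 0.05 without DekTg 4. The median was 0.0057 over all genes tested and -0.06 over the 14999 with a mean value of at least 30. Every 95% interval included 0. They ran from 0.883-fold to 1.32-fold for Adh5 and from 0.600-fold to 1.08-fold for Aldh2. These intervals count the 4 libraries of a genotype as separate samples, so they may be too narrow for a change between genotypes. With libraries 1 and 4 averaged, the SE was 0.17 for Adh5, against 0.14. For Aldh2 it was 0.24, against 0.20, with a log2 fold change of -0.45.

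**Figure D1:**
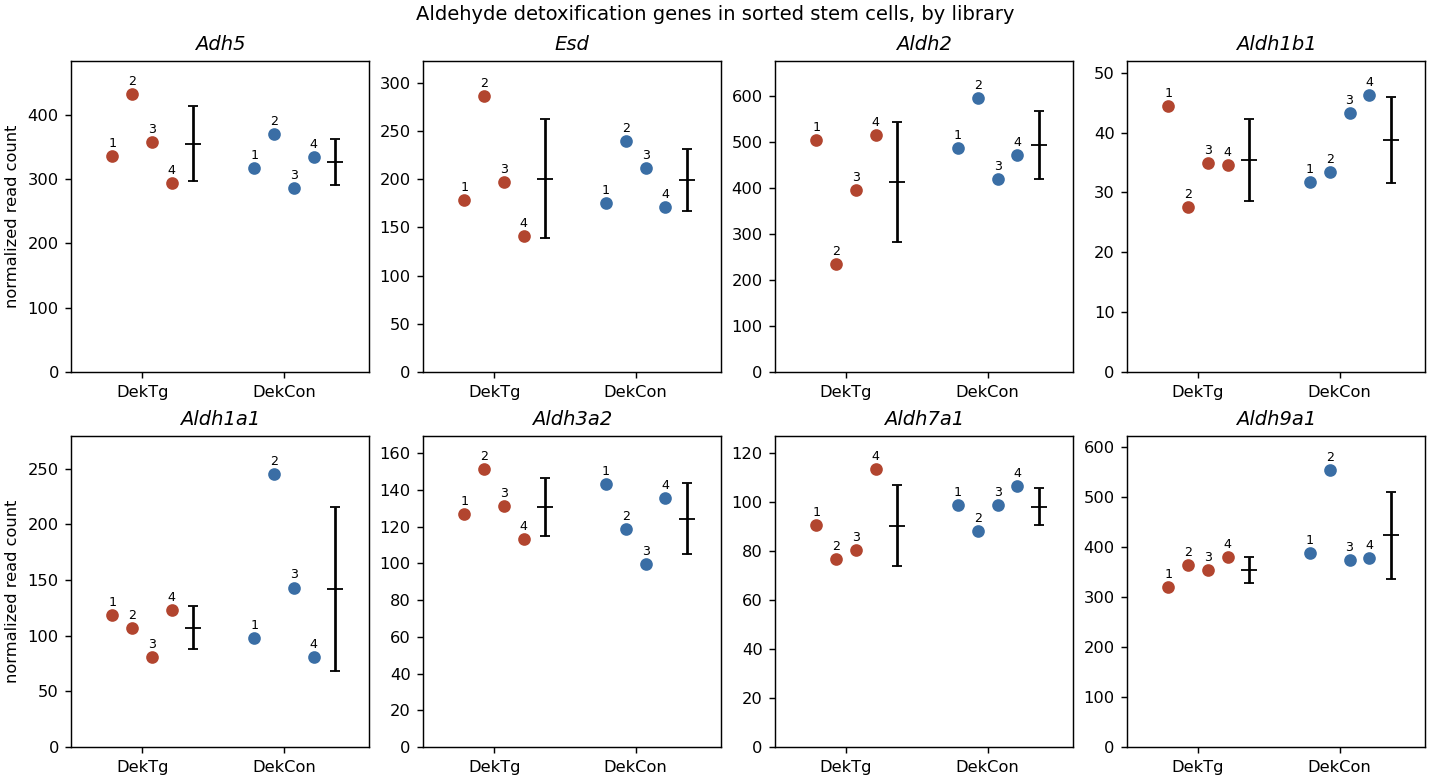
Normalized read count of each of the 8 enzyme genes in the 4 DekTg libraries (red) and the 4 DekCon libraries (blue), with library numbers and, at the right of each group, the mean ± SD. The genotypes overlap in all 8 panels. DekTg 2 is lowest for Aldh2 (235) and highest for Adh5 (432) and Esd (286), and DekCon 2 is highest for Aldh1a1 (245) and Aldh9a1 (553).

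The formaldehyde pair came first. Adh5, the glutathione-dependent formaldehyde dehydrogenase, lies at chr3:138443093-138455499 on the + strand of GRCm38 (GENCODE M21, which also gives the positions below). It had 336, 432, 358 and 294 normalized reads in DekTg 1 to 4, against 317, 370, 286 and 334 in DekCon 1 to 4. DekTg 2 was the highest library and DekCon 3 the lowest, and the groups overlapped. The means were 355 ± 58.0 in DekTg and 327 ± 35.4 in DekCon (SD, n = 4 each), with a log2 fold change of 0.11 (SE 0.14, limma adjusted p = 0.884). It was 0.01 without DekTg 2 and 0.20 without DekTg 4. Esd, which completes the formaldehyde route, lies at chr14:74732297-74750765 on the + strand. It had 179, 286, 197 and 141 normalized reads in DekTg 1 to 4, against 175, 239, 211 and 171 in DekCon 1 to 4. The lowest and the highest library were both DekTg, and library 2 was the highest of either genotype. The means were 201 ± 61.5 in DekTg and 199 ± 32.2 in DekCon (SD, n = 4 each), with a log2 fold change of -0.02 (SE 0.19, limma adjusted p = 0.987). It was -0.21 without DekTg 2 and 0.13 without DekTg 4. A processed copy of the gene, Esd-ps, was listed at 0 to 4.20 in DekTg and 0 to 0.772 in DekCon, so few reads were assigned to it. Adh5 exceeded Esd in every library, by 1.88, 1.51, 1.82 and 2.09 times in DekTg 1 to 4, against 1.81, 1.55, 1.35 and 1.95 times in DekCon 1 to 4. These ratios compare unscaled counts of 2 genes and overlapped between the genotypes.

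Aldh2, the main mitochondrial acetaldehyde dehydrogenase, showed its widest spread inside DekTg. The gene lies at chr5:121566027-121593824 on the - strand. It had 505, 235, 395 and 517 normalized reads in DekTg 1 to 4, against 488, 597, 419 and 473 in DekCon 1 to 4. DekTg 2 stood below every other library, while DekTg 1 and 4 lay inside the DekCon range. The means were 413 ± 130 in DekTg and 494 ± 74.6 in DekCon (SD, n = 4 each), with a log2 fold change of -0.31 (SE 0.20, limma adjusted p = 0.781). This was the lowest of the 8 fold changes, and without DekTg 2 it was -0.06. The span of Gm42879, an unspliced transcript annotated on the opposite strand, overlaps that of Aldh2. Whether it reaches the exons of Aldh2 was not checked. The strand setting of the counting is not given, so reads in any shared exon could not be told apart.

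The ratio of Aldh2 to Adh5 sets the mitochondrial enzyme beside the glutathione-dependent one within each library. It was 1.50, 0.544, 1.10 and 1.76 in DekTg 1 to 4, against 1.54, 1.61, 1.47 and 1.42 in DekCon 1 to 4. The 4 DekCon libraries lay close together, at 1.51 ± 0.0856, while DekTg averaged 1.23 ± 0.529 (SD, n = 4 each). DekTg libraries lay on both sides of the DekCon range, and the difference in spread was not tested.

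Library differences moved with the base composition of transcripts, most in DekTg 1, 2 and 4, a check added after the values were seen. Among 6877 genes with a mean value of at least 100 and a coding transcript (90.5% of the genes at that level), each library's log2 deviation from the other libraries of its genotype was compared with transcript G+C content. Across genes, which are not independent replicates, the correlation was 0.40, -0.52, -0.03 and 0.42 in DekTg 1 to 4, against -0.02, 0.15, -0.29 and 0.09 in DekCon 1 to 4. Each library serves as part of the reference for the others of its genotype, so these correlations are not separate observations. Which of the DekTg libraries carry a trend of their own was not tested. In DekTg 2 the median deviation was -0.34 for the fifth of genes with the highest G+C content and 0.22 for the fifth with the lowest. Aldh2, at 54.8% G+C, deviated by -0.99 in DekTg 2, and Aldh1b1, at 55.5%, by -0.44. In the same library Esd, at 44.9%, deviated by 0.74 and Adh5, at 48.1%, by 0.40. Aldh1a1, at 46.1%, deviated by 0.02, so the order was not strict over the 8 genes. In DekCon 2 and 3, Aldh2 deviated by 0.38 and -0.30, and Aldh1b1 by -0.25 and 0.24. In a further fit of the 18286 tested genes with a coding transcript, the trend with G+C content was subtracted from each library. This trend was fitted to deviations from the mean of all 8 libraries, so a genotype difference that follows G+C content was removed with it. Smaller fold changes in this fit, here and elsewhere, may therefore be partly built in. The log2 fold change of Aldh2 was then -0.16 (limma adjusted p = 0.819) and that of Esd was 0.02 (limma adjusted p = 0.981).

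The genes whose pattern over the 8 libraries was most like that of Aldh2 were Crtc1 (Pearson r = 0.997), Ubald1 (0.994) and Ptprs (0.990), among 7043 named genes with a mean value of at least 100. Crtc1 had 150, 81.7, 123 and 150 normalized reads in DekTg 1 to 4, against 139, 166, 124 and 140 in DekCon 1 to 4. Their transcripts have G+C contents of 59.2%, 59.6% and 60.3%, and DekTg 2 was their lowest library, as it was for Aldh2. The genes most like Adh5 were Rps3a1 (r = 0.949), Depdc5 (0.930) and Tmed4 (0.927), with transcripts of 48.0%, 49.9% and 48.7% G+C. Likeness over 8 libraries that share these differences in composition is a description only.

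Aldh1b1, a second mitochondrial acetaldehyde dehydrogenase encoded by an intronless coding region, was the least abundant of the 8 genes. It lies at chr4:45799022-45804604 on the + strand. It had 44.5, 27.6, 34.9 and 34.6 normalized reads in DekTg 1 to 4, against 31.7, 33.5, 43.3 and 46.3 in DekCon 1 to 4. High and low libraries were in both genotypes. The means were 35.4 ± 6.93 in DekTg and 38.7 ± 7.20 in DekCon (SD, n = 4 each), with a log2 fold change of -0.13 (SE 0.22, limma adjusted p = 0.926). With 23 to 60 reads per library, its 95% interval, from 0.667-fold to 1.26-fold, was wide. The log2 fold change was -0.02 without DekTg 2, -0.24 without DekTg 1 and 0.04 with the G+C trend subtracted.

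Aldh1a1, the cytosolic retinaldehyde dehydrogenase that also oxidizes lipid aldehydes and is widely used as a stem cell marker through its enzyme activity, varied most among DekCon libraries. The gene lies at chr19:20492715-20643465 on the + strand. It had 119, 107, 80.5 and 123 normalized reads in DekTg 1 to 4, against 97.6, 245, 143 and 81.0 in DekCon 1 to 4. DekCon 2 was the highest library, and DekCon 3 was next. The means were 107 ± 19.0 in DekTg and 142 ± 73.7 in DekCon (SD, n = 4 each), with a log2 fold change of -0.28 (SE 0.26, limma adjusted p = 0.842). Without DekCon 2 the log2 fold change was 0.02, and without DekCon 4 it was -0.51. The spans of C730002L08Rik and a processed pseudogene, Gm6684, overlap that of Aldh1a1 on the opposite strand. Whether they reach its exons was not checked, so part of its count may be uncertain.

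DekCon 2 and 3 were also the libraries with the highest megakaryocyte marker sums, 9472 and 4835, and the lowest sums over Cd48, Cd34, Flt3 and Cd27, 1177 and 1985. Aldh1a7, a mouse gene close in sequence to Aldh1a1, was high in the same libraries. It had 5.77, 4.80, 1.94 and 9.45 normalized reads in DekTg 1 to 4, against 3.80, 20.1, 33.0 and 6.17 in DekCon 1 to 4. Reads shared by the near-identical pair could be assigned to either gene, so both values are uncertain. The part of the marker genes in the Aldh1a1 values was not tested.

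**Figure D2:**
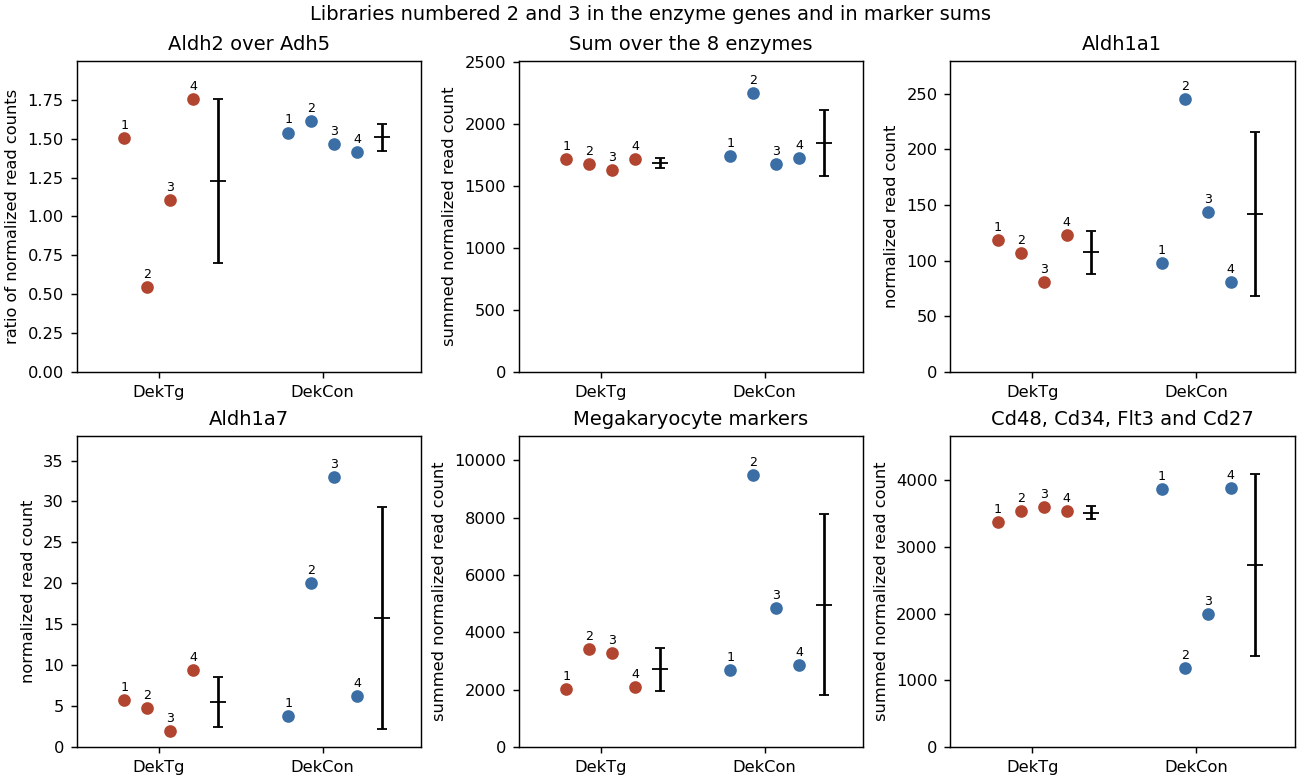
Values by library (numbers 1 to 4) in DekTg (red) and DekCon (blue), with mean ± SD at the right of each group: the ratio of Aldh2 to Adh5, the sum over the 8 genes, Aldh1a1, Aldh1a7, the summed megakaryocyte markers and the summed Cd48, Cd34, Flt3 and Cd27. DekTg 2 has the lowest ratio (0.544), and DekCon 2 has the highest sum over the enzymes (2245), Aldh1a1 (245) and megakaryocyte markers (9472).

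The fatty and amino aldehyde group also overlapped between the genotypes. Aldh3a2, the fatty aldehyde dehydrogenase of the endoplasmic reticulum whose human gene is mutated in Sjögren-Larsson syndrome, lies at chr11:61223417-61267464 on the - strand. It had 127, 151, 131 and 113 normalized reads in DekTg 1 to 4, against 143, 119, 99.9 and 136 in DekCon 1 to 4. DekTg 2 was the highest library and DekCon 3 the lowest. The means were 131 ± 15.7 in DekTg and 124 ± 19.3 in DekCon (SD, n = 4 each), with a log2 fold change of 0.08 (SE 0.15, limma adjusted p = 0.938). Without DekCon 3 it was -0.02, and without DekCon 1 it was 0.15.

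Aldh9a1, which oxidizes aminobutyraldehyde and trimethylaminobutyraldehyde, the carnitine precursor, came closest to a difference without passing the test. It lies at chr1:167349991-167368532 on the + strand. It had 319, 363, 353 and 379 normalized reads in DekTg 1 to 4, against 388, 553, 374 and 377 in DekCon 1 to 4. The overlap was narrow: DekTg 4 exceeded DekCon 3 and 4, and the other 3 DekTg libraries lay below all 4 DekCon libraries. The means were 353 ± 25.4 in DekTg and 423 ± 86.9 in DekCon (SD, n = 4 each), with a log2 fold change of -0.24 (SE 0.14, limma adjusted p = 0.755, unadjusted p = 0.102). DekCon 2 held the highest value, and without it the log2 fold change was -0.11.

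Aldh7a1, the lysine pathway enzyme that oxidizes aminoadipic semialdehyde and is also called antiquitin, lies at chr18:56509687-56572951 on the - strand. It had 90.7, 76.9, 80.5 and 113 normalized reads in DekTg 1 to 4, against 98.9, 88.0, 98.9 and 107 in DekCon 1 to 4. The highest and the lowest library were both DekTg. The means were 90.4 ± 16.4 in DekTg and 98.1 ± 7.60 in DekCon (SD, n = 4 each), with a log2 fold change of -0.13 (SE 0.16, limma adjusted p = 0.883). It was -0.06 without DekTg 2 and -0.24 without DekTg 4. The spans of Phax, Mir1258 and a processed pseudogene overlap that of Aldh7a1 on the opposite strand. Whether they reach its exons was not checked. Without a known strand setting, reads in any shared exon could not be told apart.

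**Figure D3:**
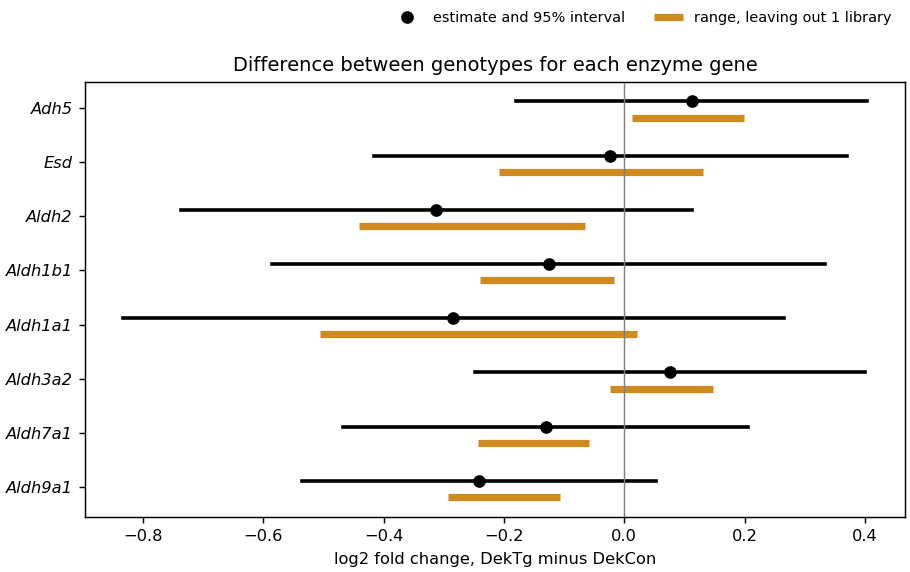
Log2 fold change of each enzyme gene, DekTg minus DekCon (x axis), with its 95% interval from limma (black) and the range of estimates when each library was left out in turn (orange). All 8 intervals include 0, and the orange ranges of Esd (-0.21 to 0.13), Aldh1a1 (-0.51 to 0.02) and Aldh3a2 (-0.02 to 0.15) cross 0.

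Without both libraries numbered 2, the log2 fold changes were 0.08 for Adh5, -0.12 for Esd, 0.03 for Aldh2, -0.08 for Aldh1b1, 0.02 for Aldh1a1, -0.01 for Aldh3a2, -0.11 for Aldh7a1 and -0.12 for Aldh9a1. All 8 then lay closer together, with a median of -0.05 and 3 above 0, and none passed the limma test (smallest adjusted p = 0.833, for Aldh9a1).

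Divided by length, the 8 genes fell into a higher and a lower group of 4. Per kb of merged exon, the mean normalized count over the 8 libraries was 115 for Aldh9a1, 88.5 for Aldh2, 63.0 for Adh5 and 59.4 for Esd. It was 25.2 for Aldh1a1, 22.7 for Aldh3a2, 18.2 for Aldh7a1 and 16.1 for Aldh1b1. Esd exceeded Aldh1a1 in 8 of 8 libraries, and Aldh9a1 exceeded Aldh2, and Aldh2 exceeded Adh5, in 7 of 8. Adh5 and Esd (5 of 8) and Aldh1a1 and Aldh3a2 (4 of 8) had no settled order. The ranges of every neighbouring pair overlapped. The order depended on the length used: with the longest coding transcript, Adh5 led at 213 per kb, ahead of Aldh9a1 at 137 and Aldh2 at 117, since the merged exons of Adh5 span 5408 bases and its transcript 1604. Aldh1b1, at 16.1, was lowest with either length.

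**Figure D4:**
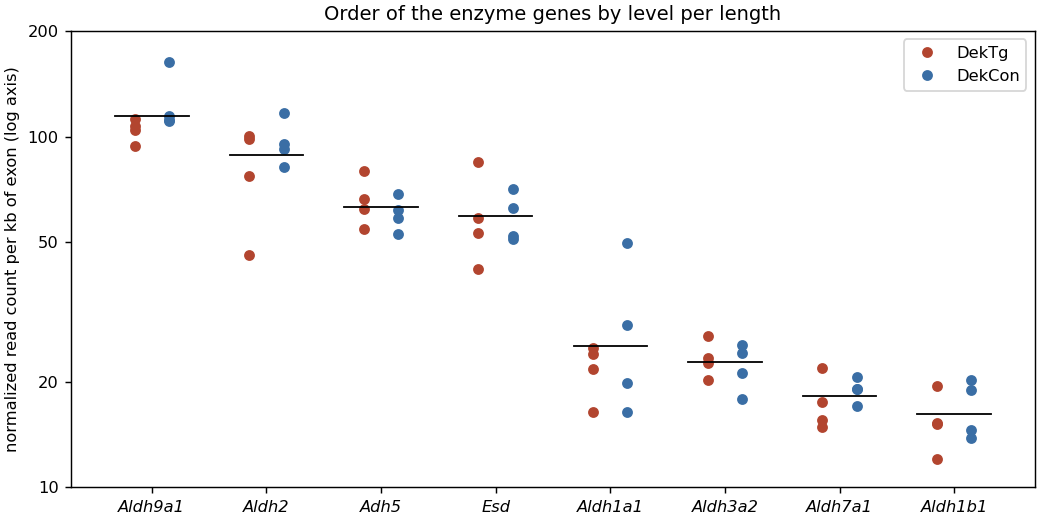
Normalized read count per kb of merged exon on a log axis for the 8 enzyme genes, ordered by their mean over the 8 libraries (horizontal line), with 1 point per DekTg library (red, left) and DekCon library (blue, right). The levels run from 115 for Aldh9a1 to 16.1 for Aldh1b1, and the 2 genotypes overlap for each gene.

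Summed over the 8 genes, the normalized reads were 1720, 1679, 1630 and 1715 in DekTg 1 to 4, against 1739, 2245, 1675 and 1726 in DekCon 1 to 4. All 4 DekTg libraries and 3 of the DekCon libraries lay close together, and DekCon 2 stood above them. The mean was 1686 ± 41.3 in DekTg and 1846 ± 267 in DekCon (SD, n = 4 each), a ratio of 0.913, with no test because the genes were chosen together. After scaling the libraries to 1 total, the ratio was 0.974. The 8 genes made up 0.0553% of all normalized reads in DekTg and 0.0567% in DekCon. In DekTg 2 the sum hardly differed from the other DekTg libraries while Aldh2 was low and Adh5 and Esd were high. This depended on the scaling. After scaling to 1 total, the sums were 1829, 1665, 1666 and 1801 in DekTg 1 to 4, and DekTg 2 was the lowest of all libraries.

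Other genes of aldehyde metabolism gave 0 calls in 103 genes tested over 6 lists, against the 0.0347% called over all genes. Of the 103, 38 had a log2 fold change above 0 and 65 below, with a median of -0.12. An unadjusted p under 0.05 was found for 13, or 12.6%, against 6.93% over all genes and 9.49% over those with a mean value of at least 30. It was found for 4 without the trend in limma and for 8 without DekTg 1 or without DekCon 2. The groups did not overlap for 6, or 5.83%, against 3.97% over all genes. EdgeR and DESeq2 on the recovered reads also called 0 of the 103, with 13 and 9 at an unadjusted p under 0.05. Rescaling the libraries to the same sum put 46 above 0 and the median at -0.04, and subtracting the G+C trend put 48 above 0, also with a median of -0.04. Leaving out each library moved the median between -0.15 (without DekCon 1) and -0.05 (without DekCon 2).

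Among the other ALDH genes, 0 of 14 passed, 4 were above 0 and the median was -0.16, or -0.10 without DekTg 3 and also without DekTg 2 or DekCon 4. Aldh1l2, which oxidizes formyltetrahydrofolate in mitochondria, had 126 ± 14.5 normalized reads in DekTg and 149 ± 9.76 in DekCon (SD, n = 4 each), a log2 fold change of -0.24 (SE 0.14, limma adjusted p = 0.754). Aldh1a7 had the lowest fold change of the list, -1.09 (SE 0.57, limma adjusted p = 0.737), with the uncertainty given above, and -0.61 without DekCon 3. Among the other alcohol dehydrogenases, 0 of 5 tested passed and all 5 lay above 0, with a median of 0.18; 4 lay above 0 with quantile normalization and 3 without both libraries numbered 2, and the median was between 0.08 (without DekCon 4) and 0.24 (without DekTg 4) leaving out each library. Adh6a averaged 34.7 ± 3.44 in DekTg and 30.6 ± 7.57 in DekCon, and Adh6b averaged 31.1 ± 4.82 in DekTg and 27.5 ± 5.48 in DekCon (SD, n = 4 each). Adh1, the major liver enzyme for ethanol, was the sixth gene and did not pass the filter. It was listed at 0 in DekCon 1, 2 and 4. Alb, Apoa1 and Adh1, marks of liver RNA, together summed to 5.25 to 10.8 in DekTg and 6.70 to 12.3 in DekCon.

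Of the aldehyde and carbonyl reductases, 0 of 21 tested passed, 7 were above 0 and the median was -0.10. It was -0.04 without DekTg 1 or without DekCon 2 and -0.16 without DekTg 2. Sord, which interconverts sorbitol and fructose, had 359, 416, 470 and 393 normalized reads in DekTg 1 to 4, against 483, 771, 484 and 503 in DekCon 1 to 4. The groups did not overlap, and the log2 fold change of -0.43 (SE 0.15) did not pass (limma adjusted p = 0.711). Without DekCon 2 it was -0.27. Dcxr, dicarbonyl and xylulose reductase, had a log2 fold change of -0.61 (SE 0.28, limma adjusted p = 0.711). It was -0.36 without DekTg 2, -0.22 without both libraries numbered 2 and -0.37 with the G+C trend subtracted. Of the 4 glyoxalase genes tested, 1 was above 0, with a median of -0.22. Park7, whose protein DJ-1 is described as acting on glyoxal adducts, averaged 365 ± 96.4 in DekTg and 501 ± 49.4 in DekCon (SD, n = 4 each; log2 fold change -0.49, limma adjusted p = 0.711). DekTg 2 was its lowest library, at 233, and without it the log2 fold change was -0.29. Hagh, which hydrolyses S-lactoylglutathione, averaged 48.5 ± 2.26 in DekTg and 58.7 ± 3.04 in DekCon (SD, n = 4 each; log2 fold change -0.27, limma adjusted p = 0.773), and its groups did not overlap. With the G+C trend subtracted it was -0.13.

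The glutathione list, which holds the cofactor supply of the Adh5 and Esd route and the conjugating transferases, had 0 of 18 tested genes past the threshold. It had 5 genes above 0, a median of -0.22 (-0.15 without DekTg 4) and 7 genes, or 38.9%, with an unadjusted p under 0.05. The share was 6.93% over all genes and 9.49% over those with a mean value of at least 30. Of the 7, Gsta4 lay above 0, with a log2 fold change of 0.80. The 7 became 4 with libraries rescaled to the same sum and 3 without DekTg 1, without DekCon 3 or without the trend in limma. Gstm2, a mu class transferase, had 12.4, 19.2, 11.6 and 18.9 normalized reads in DekTg 1 to 4, against 20.3, 40.2, 39.6 and 24.7 in DekCon 1 to 4. The groups did not overlap, DekCon 2 and 3 were again highest, and the estimate was -0.94 on the log2 scale (SE 0.29, limma adjusted p = 0.707). Gsto1, an omega class transferase, averaged 306 ± 12.9 in DekTg and 391 ± 36.0 in DekCon (SD, n = 4 each) without overlap, a log2 fold change of -0.35 (SE 0.12, limma adjusted p = 0.711). Transferase genes of 1 class are alike in sequence, so reads may have been split between them.

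Among 41 genes of aldehyde sources, such as histone and nucleic acid demethylases, amine oxidases and one-carbon enzymes, 0 passed, 16 were above 0 and the median was -0.05, which became 0.03 with libraries rescaled to the same sum and 0.01 with the G+C trend subtracted. It became -0.12 with the higher filter (value at least 10) and ranged from -0.15 (without DekCon 1) to -0.04 (without DekCon 2) leaving out each library. Kdm6b, a histone demethylase that releases formaldehyde, had 199, 193, 151 and 206 normalized reads in DekTg 1 to 4, against 312, 221, 219 and 281 in DekCon 1 to 4. The groups did not overlap, with a log2 fold change of -0.45 (SE 0.15, limma adjusted p = 0.711). With the G+C trend subtracted it was -0.22. Lox, the lysyl oxidase of collagen and elastin, averaged 54.0 ± 4.08 in DekTg and 38.3 ± 11.9 in DekCon (SD, n = 4 each; log2 fold change 0.54, limma adjusted p = 0.711), and its groups overlapped. The log2 fold change was 0.34 without DekCon 2 and 0.30 without both libraries numbered 2.

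**Figure D5:**
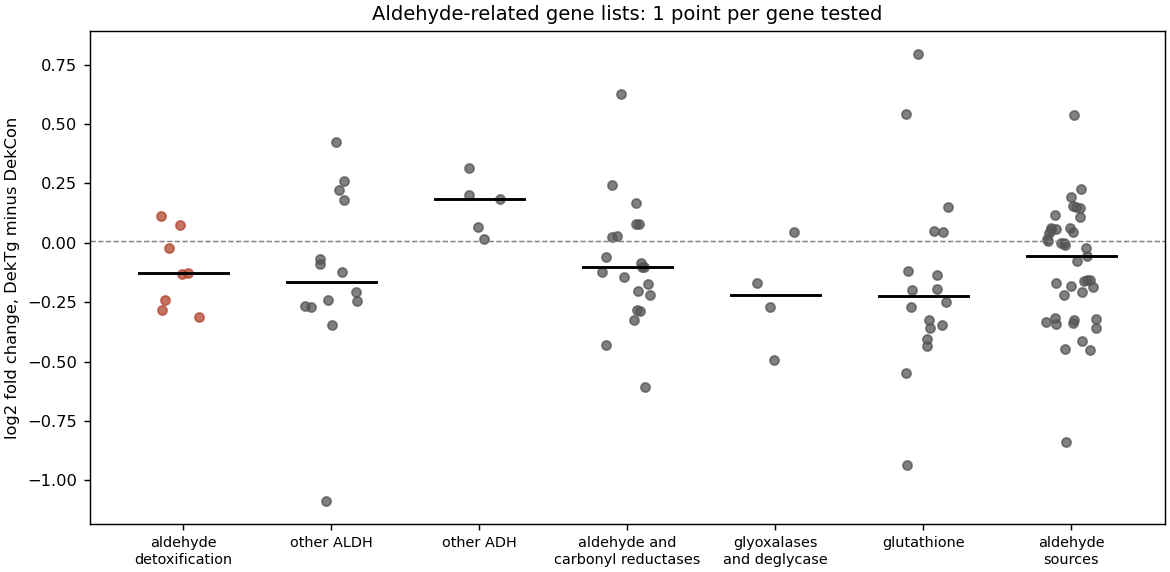
Log2 fold change, DekTg minus DekCon, of each gene tested in the 8 enzyme genes (red) and the 6 other lists (grey), with the median of each list as a bar and the median over all genes tested (0.0057) as a dashed line. Medians run from -0.22 for the glutathione and glyoxalase lists to 0.18 for the other alcohol dehydrogenases, and no gene shown passed the threshold.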

How the data were processed

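RNA from sorted cells was extracted with a miRNeasy kit, amplified by Geo-seq and made into libraries with a TruePrep kit, per the labels' protocols. Per the submitters' processing notes, the reads were handled with build mm10 and with Bowtie 0.12.9, HTSeq, Cufflinks 2.1.1 and DESeq2. No source used here gives their roles, the annotation or whether counting used strand. The deposited table, named as FPKM, holds a signal per gene and library that behaves as the authors' gene counts after division by a size factor for each library. Of 417792 values, 99.994% were whole multiples of 1 read (tolerance 0.001); 25 values in 6 genes were not, and none of these is 1 of the 8 enzyme genes. The table's header spells DekCon as DenCon, and columns were matched by Con and number. The design assumed FPKM, and its log-scale test was kept.

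Genes with a value of at least 1 in at least 4 libraries were tested by limma 3.58.1 with trend (R 4.3.3) on log2(value + 1), two-sided, with Benjamini-Hochberg adjustment and a threshold of 0.05. Alternatives were DESeq2 1.42.0 and edgeR 4.0.16 on recovered reads (the 6 genes left out), and other scalings, filters, pseudocounts and limma options, and leaving out each library. The count test of edgeR called 9 genes and DESeq2 16. Amplified reads carry no molecular identifiers, so read numbers cover counting error only. All 8 genes are named; each list gives its genes past the threshold or else the 2 with the smallest p and a summed value above 80. The 8 genes and the lists were chosen with earlier results of these data known. Of the glyoxalase list, Hagh2 was not matched in the table.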

Additional observations from a re-analysis of the deposited data

Results flagged for a closer look

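In groups of 4 libraries, a value is named here where its gap to the nearest other library takes up a share of the group's range above Dixon's 95% critical value. Of 56 groups checked, 8 met this, and chance gives about 1 in 20. Of these, 6 were DekCon 2. It had 553 normalized reads of Aldh9a1, against 374 to 388 in the other DekCon libraries, and 771 of Sord, against 483 to 503. Its sum over the 8 enzyme genes was 2245, against 1675 to 1739, its sum per kb was 522, against 393 to 399, and its sum after scaling to 1 total was 2007, against 1710 to 1716. Its share of all normalized reads was 0.0637%, against 0.0543% to 0.0545%. In DekTg, DekTg 3 had a sum per kb of 377, against 391 to 393, and DekTg 2 had a ratio of Aldh1a1 to Aldh2 of 0.454, against 0.204 to 0.238. The sums and the share are made from the same 8 genes, so they are not separate findings.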

How the results depend on the processing

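The 8 enzyme genes gave 0 calls under all 26 alternatives, and the smallest adjusted p of any of them was 0.639 (limma, Aldh9a1 without DekCon replicate 3). Over all genes, 13 calls became 4 without the trend, 8 without the genes whose values were not whole and 39 without both libraries numbered 2. Leaving out each library gave 13 to 22 calls, the most without DekTg replicate 2 (10 higher, 12 lower). With the replicate number as a block there were 15 calls, against 13, and 0 of the 8 enzyme genes; same-numbered libraries deviated together with correlations of 0.03, 0.01, 0.04 and 0.15, so the numbers were not shown to pair libraries. The log2 fold change of Esd, -0.02, was 0.059 with quantile normalization, 0.062 with libraries rescaled to the same sum, 0.014 with libraries 1 and 4 averaged, 0.011 with edgeR, 0.0063 with DESeq2 with or without independent filtering and 0.020 with the G+C trend subtracted, and ran from -0.21 to 0.13 leaving out each library. Aldh1b1 was 0.038 with the G+C trend subtracted. Without both libraries numbered 2, Aldh2 was 0.030, Aldh1a1 0.017 and Aldh3a2 -0.015. Leaving out each library, Aldh1a1 ran from -0.51 to 0.022 (without DekCon replicate 2) and Aldh3a2 from -0.024 (without DekCon replicate 3) to 0.15. The cause was not tested. These make up the 17 sign changes among 208 values of the 8 genes. The alternatives with both libraries 2 left out, without the genes with values not whole and with the G+C trend subtracted were chosen after seeing the data. Aldh1b1, with 23 to 60 reads, had the fewest reads.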
